A study of Mus musculus with 45 samples.

Results

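The genes described here are 9 genes of central nervous system myelin, Mbp, Mobp, Mag, Mog, Opalin, Cnp, Cldn11, Mal and Ugt8a, which were picked by name. All 9 were found in the table, which holds 15897 genes of mouse hippocampus measured by RNA sequencing. The 45 female C57Bl/6J mice carried neither transgene (AwTw), human Tau P301L (AwT+), APPswe/PS1dE9 (A+Tw) or both (A+T+), and received a standard diet (STD, 5% fat and 0% cholesterol) or a typical Western diet (TWD, 21% fat and 0.15% cholesterol) from 7 to 13 months of age. Each group held 6 mice, except A+Tw on STD with 5 and A+T+ on STD with 4. The APPswe/PS1dE9 transgene is driven by the mouse PrP promoter and the Tau transgene by the CaMKII promoter, and A+T+ mice came from a cross of these 2 lines. Levels are on a log2 scale, so a difference of 1 is close to a doubling.

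Myelin is the lipid-rich membrane that oligodendrocytes wrap around axons in the brain, where it insulates them and speeds conduction. Its compact layers are held together by basic and membrane-spanning proteins, its inner loops by adhesion and junction proteins, and its lipids are rich in galactosylceramide. In whole tissue, fewer oligodendrocytes and less RNA per oligodendrocyte cannot be told apart.

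All 9 genes were measured well above the lowest value of the table, 1.90, in every mouse, and the lowest level of any of them was 6.66, in Ugt8a. Most of them shared their lowest group, but the order of the groups above it differed between genes. The group mean was lowest in AwTw mice on STD for Mbp, Mobp, Mag, Mog, Opalin, Cnp and Cldn11, whereas Ugt8a was highest there. The steps between groups next to each other in a gene's own order were smaller than the larger of the 2 SDs, except 1 step each in Mag and Opalin. In Mag this step was from AwTw on STD to the group above it. In Opalin it was from AwT+ on STD to the group above it.

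**Figure D1:**
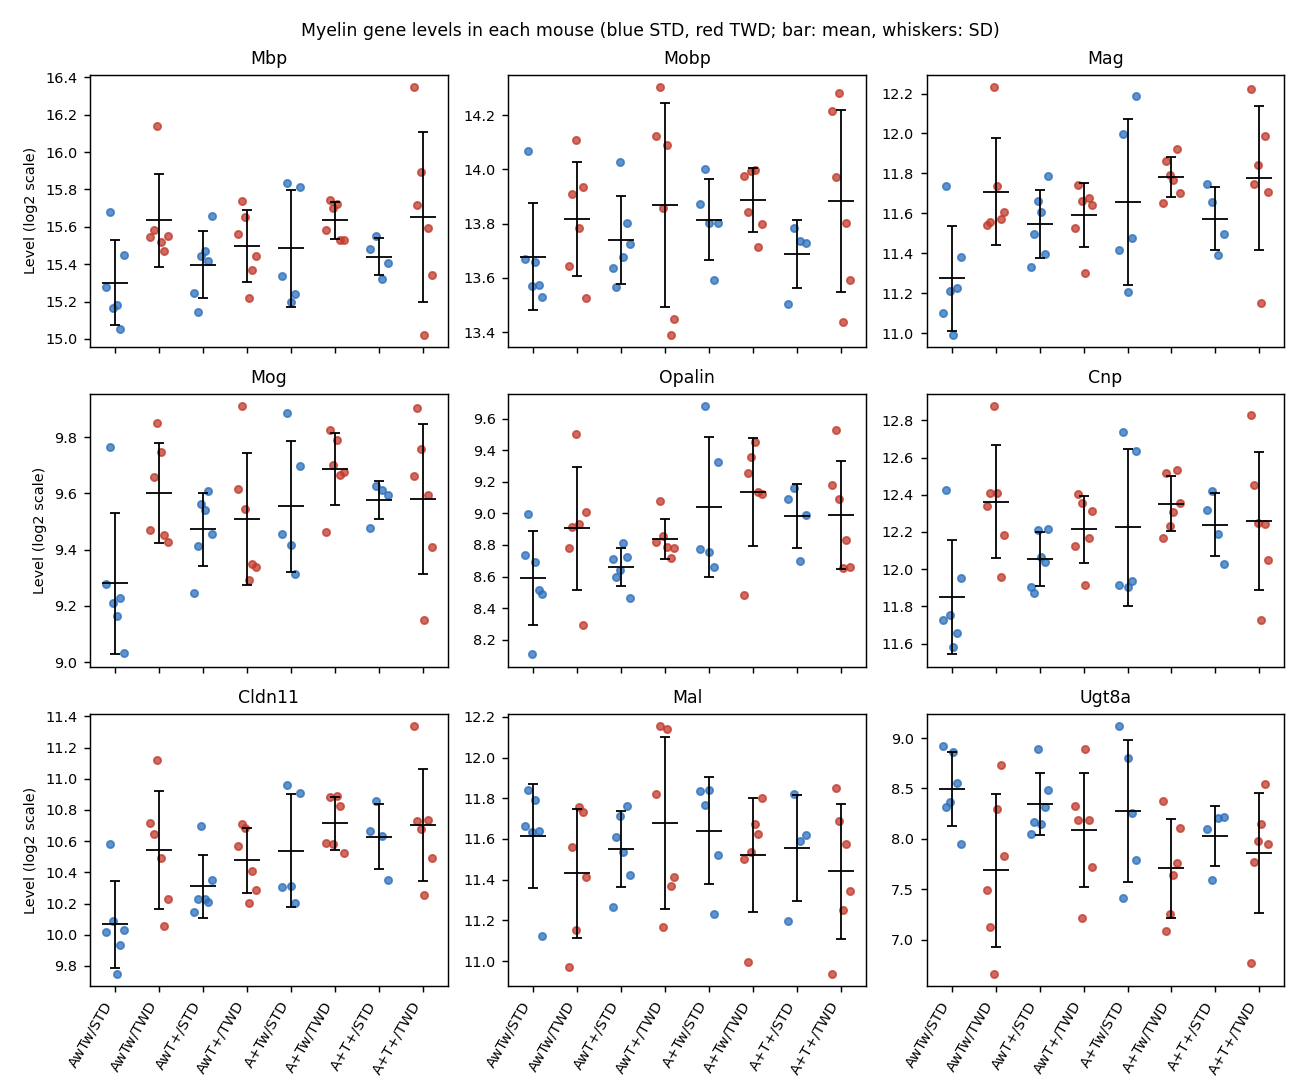
Level of each myelin gene (vertical axis, log2 scale, own range per gene) in each of the 45 mice, by genotype and diet, with STD in blue and TWD in red. The bar is the group mean and the whiskers are the SD; AwTw mice on STD sit low for Cldn11 (9.75 to 10.58) and high for Ugt8a (7.95 to 8.92), and all groups overlap.

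Promoter sequences are shown for Cnp, Mag and Cldn11, because these were among the members whose levels moved together most closely between mice. They are RefSeq sequences (GRCm38.p6) from 250 to 51 bases before the annotated start. Windows of 8 of the 9 genes were searched, and Mbp was left out of the search. Capitals mark ACAAAG, letters found in binding sites of SOX proteins, and CTGGNAC, each on either strand. CTGGNAC, in which N was allowed to be any base, resembles letters in sites of the oligodendrocyte factor MYRF. A match to this loose pattern was not checked to be such a site.
Cnp, chr11:100574689-100574888, plus strand: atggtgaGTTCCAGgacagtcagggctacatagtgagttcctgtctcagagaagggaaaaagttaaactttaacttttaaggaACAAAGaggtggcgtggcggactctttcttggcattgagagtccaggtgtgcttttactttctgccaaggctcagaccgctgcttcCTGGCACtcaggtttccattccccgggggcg
Mag, chr7:30914914-30915113, minus strand: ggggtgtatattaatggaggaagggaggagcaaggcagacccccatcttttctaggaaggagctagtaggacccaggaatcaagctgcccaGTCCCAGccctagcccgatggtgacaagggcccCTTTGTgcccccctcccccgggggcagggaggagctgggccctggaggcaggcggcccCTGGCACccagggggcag
Cldn11, chr3:31149670-31149869, plus strand: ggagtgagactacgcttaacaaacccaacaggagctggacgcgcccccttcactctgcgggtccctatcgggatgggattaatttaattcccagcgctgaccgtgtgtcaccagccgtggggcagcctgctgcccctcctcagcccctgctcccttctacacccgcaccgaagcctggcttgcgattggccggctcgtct
The windows shown for Cnp and Mag each held ACAAAG once and CTGGNAC at 2 places, and that of Cldn11 held neither. Among the members not shown, the window of Mobp held ACAAAG at 6 places and that of Opalin at 1. The window of Mog held CTGGNAC at 1 place, and those of Mal and Ugt8a held neither pattern. Mag has 3 annotated starts in the promoter set, of which the first is shown. The window of the second held each pattern once, but it overlaps the first and these matches are the same bases. The bases after this second start were not found in a GENCODE M21 transcript. The window of the third held neither pattern. Across all 32851 promoter windows of this length, ACAAAG was present in 13.6% and CTGGNAC in 13.2%. The patterns CAGCTG (10.3% of all windows) and TATAAA (9.14%) were not in any member window searched, and Mbp was not searched. The windows searched include that of Ugt8a, whose bases after the start were not found in a GENCODE M21 transcript. These matches describe letters in the window only.

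The first question was whether the amyloid transgene was accompanied by a change in myelin genes, over both Tau genotypes and both diets. Cldn11, a claudin that forms the tight junctions between myelin layers, was the only member to pass the test, and was higher in A+ than in Aw mice. In AwTw mice on STD its level ran from 9.75 through a median of 10.03 to 10.58, and in AwT+ mice on STD from 10.15 through 10.23 to 10.70. In A+Tw mice on STD the 5 levels were 10.31, 10.96, 10.32, 10.20 and 10.91, and in A+T+ mice on STD the 4 levels were 10.66, 10.86, 10.64 and 10.35. On STD the A+ mice were thus mostly above the AwTw mice, although the groups overlapped.
On TWD, AwTw mice ran from 10.06 through 10.57 to 11.12, and AwT+ mice from 10.20 through 10.49 to 10.71. A+Tw mice on TWD ran from 10.52 through 10.71 to 10.89, and A+T+ mice from 10.25 through 10.70 to 11.34. Aw and A+ mice overlapped more closely on this diet.
The mean of Cldn11 was 10.35 ± 0.32 (SD, n = 24) in Aw mice and 10.65 ± 0.28 (SD, n = 21) in A+ mice, and the fitted difference was 0.31 on the log2 scale (SE 0.08), or 1.24-fold (limma, adjusted p = 0.026). Of all genes, 3.77% passed in this comparison, and 1 of 9 members is too few to set apart from that share. The Cldn11 difference no longer passed when any 1 of 4 mice was left out: A+T+/TWD mouse 1 (0.27, limma adjusted p = 0.051), A+Tw/STD mouse 2 (0.28, 0.054), A+Tw/STD mouse 5 (0.28, 0.054) or A+T+/STD mouse 2 (0.29, 0.057). In 9 of the 45 runs with 1 mouse left out 2 members passed. Within the batches it was 0.16 in batch 0 (adjusted p = 0.73) and 0.43 in batch 1 (adjusted p = 0.073).

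Among the other membrane proteins, Opalin, a glycoprotein of the oligodendrocyte surface, had a level of 8.75 ± 0.28 (SD, n = 24) in Aw mice and 9.04 ± 0.33 (SD, n = 21) in A+ mice, a difference of 0.30 (SE 0.09, limma adjusted p = 0.063). Mag, an adhesion protein of the membrane facing the axon, differed by 0.17 (SE 0.08, adjusted p = 0.27), and Mog, a protein of the outermost layer, by 0.14 (SE 0.06, adjusted p = 0.27). Cnp, an enzyme of the channels between the layers, differed by 0.15 (adjusted p = 0.37). Mbp and Mobp, basic proteins that hold the layers together, differed by 0.10 and 0.04, and these did not pass. Mal, a proteolipid of membrane traffic, differed by -0.03 and Ugt8a, which makes galactosylceramide, by -0.20. Over the 9 members the median difference was 0.14, and 7 were higher, whereas the median over all genes was -0.017. These 7 varied together between mice and are not separate results. Across 15695 genes, the difference between A+ and Aw mice rose with the G and C content of the transcripts (Spearman rho 0.41). With the trend in that content and in transcript length removed, chosen after seeing the data, 1 member and 856 of all genes passed. The part of base composition in this shift was not otherwise tested.

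**Figure D2:**
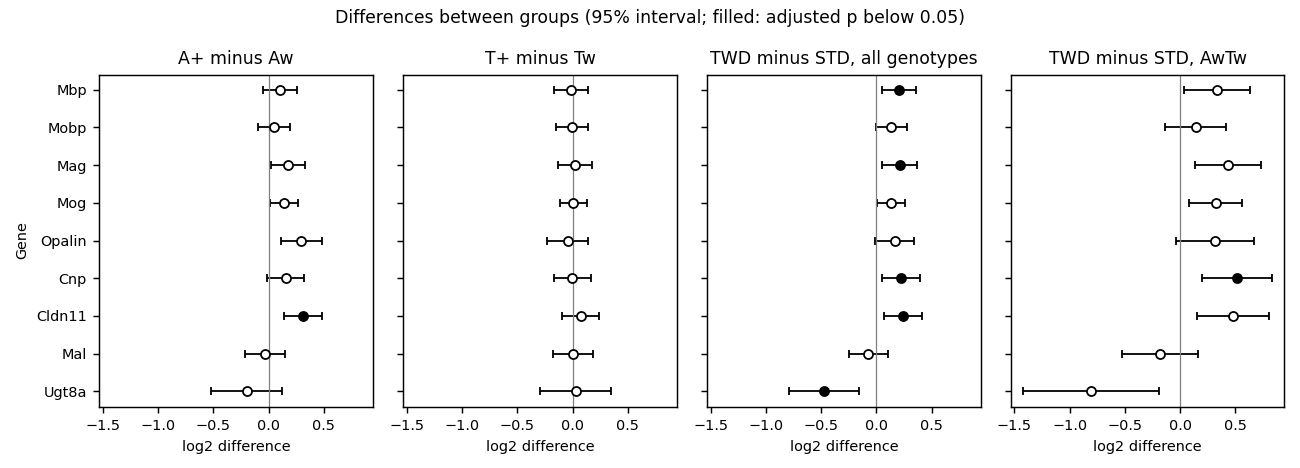
Difference between groups (horizontal axis, log2 scale) for each myelin gene in 4 comparisons; points are fitted values, whiskers the 95% interval and filled points pass an adjusted p of 0.05. Cldn11 stands at 0.31 between A+ and Aw, no point is filled between T+ and Tw, and 4 genes rise and Ugt8a falls with TWD over all genotypes.

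Other oligodendrocyte genes changed unevenly with the amyloid transgene. Of 26 other genes of mature oligodendrocytes, 2 were higher and none lower: Cd9, a tetraspanin, rose by 0.88 (SE 0.08, limma adjusted p = 1.8e-11) and Gsn, an actin-severing protein, by 0.38 (adjusted p = 0.0053). Both are also expressed by other cells of the brain. None of 10 transcription factors of the lineage, of 13 precursor genes or of 14 enzymes of myelin lipids passed. Of 8 genes reported for oligodendrocytes in disease, 7 were higher, among them complement C4b by 1.58 and the protease inhibitor Serpina3n by 0.73, and these are made by astrocytes and microglia as well. Peripheral myelin was represented by Pmp22 alone, which was higher by 0.40 (adjusted p = 4.2e-05).
Markers of other cells moved with the same contrast. Of 10 microglial markers, 8 were higher, and their log2 summed level ran from 12.4 to 13.3 in Aw mice and from 13.2 to 14.2 in A+ mice. Of 10 choroid plexus markers all were higher with none passing, and their log2 summed level ran from 9.61 to 18.1 in Aw and from 10.5 to 17.6 in A+ mice. Of 8 neuronal markers 7 and of 10 genes of the axonal node and paranode all were lower in A+ mice, with none passing. The log2 summed level ran from 16.9 to 17.5 in Aw and from 16.7 to 17.3 in A+ mice for the neuronal markers, and from 14.9 to 15.6 and from 14.8 to 15.3 for the node genes. None of these markers was at the lowest level of the table in any mouse. With the choroid plexus level as a covariate, chosen after seeing the data, Cldn11 differed by 0.27 (limma adjusted p = 0.11). The part of these markers in the Cldn11 difference was not otherwise tested.

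Within a diet, none of the 9 members passed in A+Tw, AwT+ or A+T+ mice against AwTw mice. The background in these 6 comparisons was 0.925% of genes in A+Tw on STD, 0.824% in A+Tw on TWD, 1.32% in A+T+ on STD, 0.73% in A+T+ on TWD and 0% in AwT+ on both diets. At an unadjusted p under 0.05 in limma, 5 members passed in A+Tw on STD (5.66% of all genes), 4 in A+T+ on STD (14.3%) and 0 in A+Tw on TWD (5.2%), A+T+ on TWD (7.76%), AwT+ on STD (2.39%) and AwT+ on TWD (3.04%). These comparisons share their AwTw mice. The members that passed are all among the 7 that varied together, and so are not separate results. The largest member difference was Cldn11 in A+T+ mice on STD, at 0.57 (SE 0.18, limma adjusted p = 0.12), with 0.19 on TWD, and 1 member passed on STD without AwTw/STD mouse 2. In A+Tw mice it was 0.46 on STD and 0.20 on TWD, and in AwT+ mice 0.26 on STD and -0.07 on TWD.

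The Tau transgene was not accompanied by a detectable change in any member, over both amyloid genotypes and both diets (0 of 9, background 0.0189% of genes). No member had an unadjusted p under 0.05 in limma either (5.15% of all genes). The differences lay between -0.043 in Opalin and 0.073 in Cldn11. The 95% interval ran from -0.17 to 0.14 for Mbp and, at its widest, from -0.29 to 0.35 for Ugt8a.

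The next question was whether diet changed these genes irrespective of genotype. Cldn11, Cnp, Mag and Mbp were higher and Ugt8a was lower on TWD, so 5 of 9 members passed. This was against a background of 29.4% of all genes, of which 16% were higher and 13.4% lower.
In the 21 mice on STD, Cnp ran from 11.58 through a median of 12.03 to 12.74, and in the 24 mice on TWD from 11.73 through 12.31 to 12.87. The mice on the 2 diets overlapped over most of their range. The fitted differences were 0.24 for Cldn11 (SE 0.08, limma adjusted p = 0.031), 0.22 for Cnp (SE 0.08, adjusted p = 0.043), 0.21 for Mag (SE 0.08, adjusted p = 0.038) and 0.20 for Mbp (SE 0.08, adjusted p = 0.039), which are increases of 1.15-fold to 1.18-fold.
Ugt8a ran from 7.41 through 8.25 to 9.12 on STD and from 6.66 through 7.89 to 8.89 on TWD. Its difference was -0.47 (SE 0.16, limma adjusted p = 0.026), or 0.721-fold, with the ranges again overlapping. Opalin differed by 0.17, Mobp by 0.14, Mog by 0.13 and Mal by -0.07, and these did not pass.

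The base composition of the transcripts was set beside these differences. Ugt8a transcripts hold 40.2% G and C, whereas those of the 4 members that rose hold 50.9% (Cldn11), 54.7% (Cnp), 57.1% (Mag) and 55.3% (Mbp). The members that did not pass did not follow this order throughout. Mal, at 51.9%, differed by -0.07, while Opalin, at 46.7%, differed by 0.17, Mobp, at 53.3%, by 0.14 and Mog, at 50.8%, by 0.13. Across 58 genes of the lineage, the difference between diets rose with GC content (Spearman rho 0.60), as it did across 15695 genes (rho 0.62), which are not independent replicates. With the trend in GC content and transcript length removed, an alternative chosen after seeing the data, Cldn11 alone of the members passed, at 0.24 (limma adjusted p = 0.038), Ugt8a differed by -0.13 (adjusted p = 0.20), and 2892 of all genes passed. The part of base composition in the diet result was not otherwise tested.

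**Figure D3:**
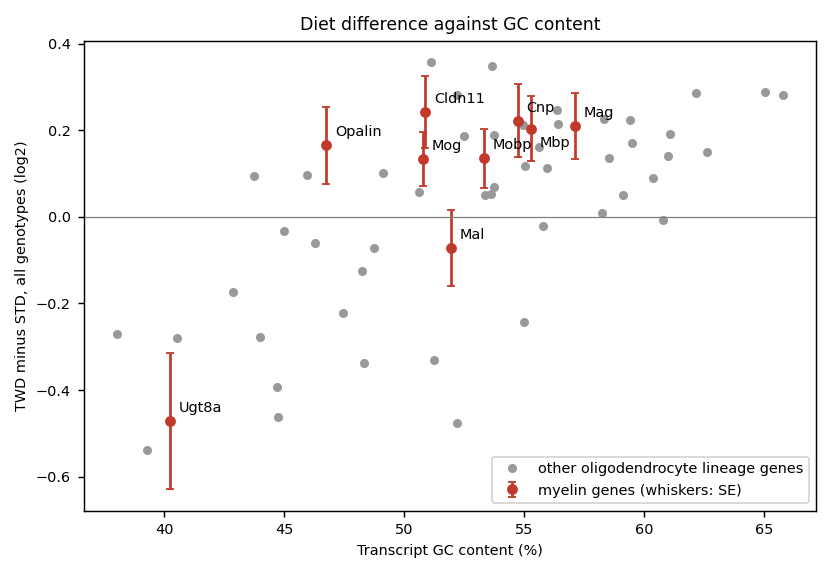
Difference between TWD and STD over all genotypes (vertical axis, log2 scale) against the GC content of the transcripts (horizontal axis, percent) for the myelin genes (red, whiskers SE) and other oligodendrocyte lineage genes (grey). Ugt8a stands at 40.2% and -0.47, whereas Mag stands at 57.1% and 0.21.

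A single score per mouse followed many of these genes, but was not particular to them. Its gene weights came from the leading principal component after group and batch had been fitted and removed, but the score was taken on the levels themselves, so it still carries differences between groups. Over the 45 mice its Pearson r was 0.88 with Cnp, 0.81 with Cldn11, 0.80 with Mbp and 0.79 with Mag, and -0.93 with Ugt8a, while Mobp was at 0.26. Across 15695 genes, the Pearson r of a gene with the score rose with its GC content (Spearman rho 0.72). The median score was -0.51 in STD and 0.26 in TWD mice, and -0.29 in Aw and 0.18 in A+ mice. Of the 8 groups, AwTw mice on STD had the lowest median score, at -1.19. Since the score differed between the diets, a fit with it as a covariate takes part of the diet difference out by construction. None of the 15897 genes passed for diet in that fit, so it says nothing particular about the members.
The diet result also varied with batch and with single mice. Batch 0 held 20 mice and batch 1 held 25. In batch 0 there was 1 A+Tw mouse on STD, and 2 mice in AwTw on either diet, AwT+ on TWD and A+T+ on STD. The difference between batches was not tested. In batch 0 alone 0 members and 0 of all genes passed, and in batch 1 alone 5 members and 6498 genes passed, with Cnp at 0.058 and 0.41 and Ugt8a at -0.20 and -0.68. Leaving out AwT+/TWD mouse 3 or AwTw/TWD mouse 3 left 0 members, and leaving out A+T+/TWD mouse 1 or AwTw/STD mouse 4 left 1. The count over all genes fell as well, from 4678 to between 2768 and 2856 in the first pair of runs and to between 3236 and 3344 in the second. A count of 2 remained without A+Tw/TWD mouse 2, AwTw/TWD mouse 1, A+Tw/STD mouse 1, 3 or 4, AwTw/STD mouse 1, 3 or 5, or A+T+/STD mouse 4, and a count of 3 without AwT+/TWD mouse 2, AwTw/TWD mouse 2, AwT+/STD mouse 2 or A+T+/STD mouse 3. A+T+/TWD mouse 1 and AwTw/TWD mouse 3 correlated least with the other mice (median r 0.941 and 0.944); without both, 0 members passed for diet and 1 gene of all.

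Within AwTw mice, Cnp passed and was higher on TWD. It ran from 11.58 through a median of 11.74 to 12.42 on STD and from 11.96 through 12.38 to 12.87 on TWD, so that the mice overlapped. The difference was 0.51 (SE 0.16, limma adjusted p = 0.0498), and 9.35% of all genes passed. Cldn11 differed by 0.48 and Mag by 0.43 (both adjusted p = 0.0502), Mog by 0.32 (0.057), Mbp by 0.33 (0.091) and Ugt8a by -0.81 (0.058). In 32 of 45 runs with 1 mouse left out, no member passed, and in none of these runs did any gene pass.
No member passed for diet in any of the 3 transgenic genotypes (background 0% of genes in each), nor did any pass for a difference of the diet effect from that in AwTw mice (background 0% of genes). At an unadjusted p under 0.05 in limma, 0 members passed for diet in AwT+ (7.44% of all genes), A+Tw (4.43%) and A+T+ mice (2.57%), and for the difference of diet effects 0 in A+Tw (2.21%), 0 in AwT+ (4.02%) and 1 in A+T+ mice (6.3%). For Cnp the difference between diets was 0.03 with both transgenes, 0.14 with APPswe/PS1dE9 alone and 0.16 with Tau P301L alone, and for Ugt8a it was -0.19, -0.61 and -0.24 in the same order. The change of the diet effect in A+T+ mice was -0.49 for Cnp and 0.62 for Ugt8a, neither past the threshold.

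Other genes of the lineage also went both ways with diet, as did all genes (16% higher and 13.4% lower), and the counts of these lists are not set apart from that background. Of 26 mature oligodendrocyte genes 5 were higher and 3 lower, with Qdpr, an enzyme of pterin metabolism, rising by 0.36 and Cryab, a small heat shock protein, by 0.35 (limma adjusted p = 0.016 for both). Of 10 transcription factors 3 were higher and 2 lower, of which St18 fell by 0.46 and Olig1 rose by 0.19. Of 13 precursor genes 3 were higher and 3 lower, and Pdgfra, the growth factor receptor of precursors, fell by 0.33. Of 10 genes of the axonal node and paranode none was higher and 3 were lower, and of 8 neuronal markers 1 was higher and 3 were lower. Of 14 enzymes of myelin lipids 2 were higher and 4 lower, and Galc, which breaks galactosylceramide down, fell by 0.20.

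Between mice, 7 members varied together and the other two did not. All 21 pairs among Mbp, Mobp, Mag, Mog, Opalin, Cnp and Cldn11 had a positive Pearson r over the 45 mice, from 0.44 to 0.91, with Cnp and Cldn11 at 0.91 and Mag and Cnp at 0.90. Ugt8a was negatively related to all 7, from -0.73 to -0.17. Mal lay between -0.24 and 0.38 with the 7 and at 0.56 with Ugt8a. The mean level of the axonal node and paranode genes had a Pearson r of -0.77 to -0.55 with the 7 and 0.65 with Ugt8a, and that of the neuronal markers -0.67 to -0.41 with the 7 and 0.53 with Ugt8a. All mice share the protocol of library preparation and the correction for batch, and these values are descriptions. The labels do not say what batch stands for.
The place of Mal differed between batches. In batch 0 (20 mice) its r with the 7 ran from 0.59 to 0.90, and in batch 1 (25 mice) from -0.55 to 0.17. Ugt8a with the 7 ran from -0.64 to 0.12 in batch 0 and from -0.85 to -0.32 in batch 1. This difference was not tested.

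**Figure D4:**
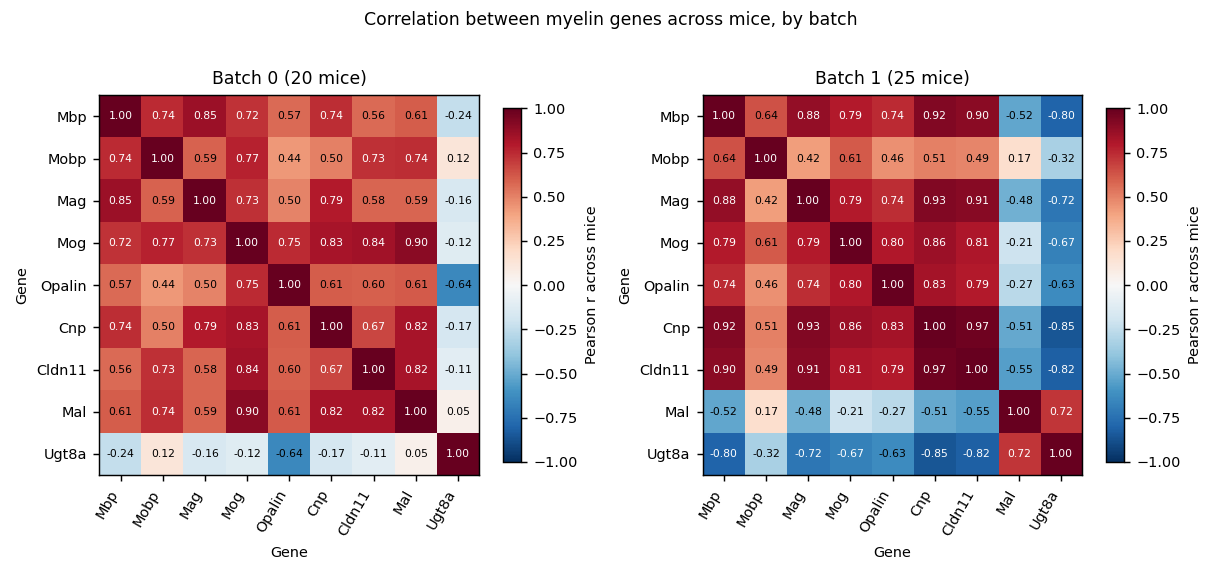
Pearson r between the levels of each pair of myelin genes across the mice of batch 0 (left, 20 mice) and batch 1 (right, 25 mice), with genes on both axes and colour from -1 (blue) to 1 (red). Cnp and Cldn11 stand at 0.67 and 0.97, and Cnp and Ugt8a at -0.17 and -0.85.

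The genes outside the 9 most like their mean standardised level, over the 45 mice, were Plekhb1 (Pearson r 0.88), Tppp3 (0.83), Carhsp1 (0.83), Plpp2 (0.81), Pdlim2 (0.81), Bcas1 (0.81), Prr18 (0.81), Trf (0.80), Rarres2 (0.80) and Pllp (0.80). On residuals of group and batch they were Plekhb1 (0.90), Carhsp1 (0.85), Tppp3 (0.83), Bcas1 (0.81), Plpp2 (0.79), Hist1h2bc (0.79), Ost4 (0.77), Trf (0.77), Ndrg1 (0.77) and Rarres2 (0.76). Plekhb1, Trf, Pllp and Ndrg1 were also on the list of mature oligodendrocyte genes and Bcas1 on that of precursors. The mean of the 9 mostly reflects the members other than Mal and Ugt8a. As deposited, its Pearson r was 0.23 with Mal and -0.43 with Ugt8a, and on residuals 0.33 and -0.32.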

How the data were processed

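Polyadenylated RNA of the hippocampus of 45 mice was sequenced. The authors trimmed reads (Trimmomatic 0.38), removed ribosomal and mitochondrial reads (Bowtie2 2.2.3), quantified transcripts (kallisto 0.44.0) and applied a filter on the mean count and the variance stabilizing transformation of DESeq2 1.22.2. The values as deposited are thus log2-like, and were corrected for batch with limma 3.38.3, so batch means are equal for each gene. The groups were not part of this correction and were spread unevenly over the batches. For example, batches 0 and 1 held 1 and 4 A+Tw mice on STD, and 4 and 2 on TWD. Levels and group means as printed may thus have lost part of a difference between groups, which was not tested. The fits kept batch as a covariate for this reason. Depth per mouse is unknown, and precision came from the spread between mice.

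Groups, diet and batch were taken from the labels. The test was limma 3.58.1 under R 4.3.3 (empirical Bayes with a mean trend), in 1 fit of 8 groups with batch as covariate, and for diet irrespective of genotype in a fit with additive terms. Tests were two-sided and adjusted by Benjamini-Hochberg over all 15897 genes, with a threshold of 0.05. Symbols and GC content came from GENCODE M21.

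The members and lists were chosen with earlier results of these data known. The text names all 9 members, from other lists at most 4 genes past the threshold with the smallest adjusted p (a subset is named), and the 10 genes most like the members. The fit was tested on simulated data in which genes varied independently of each other, unlike the measured ones. A simulated difference of 0.3 was recovered in 44% of changed genes for A+ against Aw and in 45.5% for diet over all genotypes. For diet in AwTw mice it was recovered in 0%, and a difference of 0.6 in 56.5%. Alternatives covered batch, normalization, filter, trend, weights, covariates and each mouse left out. Computation also used Python 3.11.15, numpy 2.4.6, scipy 1.17.1, pandas 2.3.3 and matplotlib 3.10.9.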

Additional observations from a re-analysis of the deposited data

Results flagged for a closer look

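In 8 of 72 sets of levels (9 genes in 8 groups), 1 mouse stood far from the rest of its group, where chance gives about 1 in 20 for a single set. The sets share mice and most of the genes vary together, so no excess over that rate is claimed. In AwTw mice on TWD, mouse 3 was high for Mbp (16.14, next 15.58) and Mag (12.23, next 11.74), and this mouse correlated poorly with the others. In AwTw mice on STD, mouse 2 was high for Mog (9.77, next 9.28) and Mobp (14.07, next 13.67), and mouse 6 was low for Mal (11.12, next 11.63). Cldn11 was high in AwT+ mouse 3 on STD (10.70, next 10.35). In A+Tw mice on TWD, Mal was low in mouse 2 (11.00, next 11.50) and Opalin in mouse 1 (8.48, next 9.13).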

How the results depend on the processing

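No member reversed a called direction under any alternative: of 8325 member values, 8118 kept their side of the threshold, 128 lost it and 79 gained it. Most of these values were not called in the main fit, where 1 member passed for A+ against Aw, 1 for diet in AwTw mice and 5 for diet over all genotypes. The 8118 are thus mostly values that stayed uncalled, and they do not measure how stable the calls were. For diet in AwTw mice, the count of 1 member became 0 in batch 0 alone, with quantile normalization, without the mean trend, with only the groups compared and with the first residual component as covariate, 3 without the batch covariate, 5 in batch 1 alone and with genes above the 25th percentile, and 7 with array weights. For diet over all genotypes, 5 became 0 in batch 0 and with the component (0 of all genes in both), 2 with quantile normalization (4836 genes) and 7 with array weights (5354 genes). The component score itself differed between diets, so that fit is no check of the diet result. For A+ against Aw, 1 became 0 in batch 0 and in batch 1. With array weights 5 members passed for A+T+ against AwTw on STD and 1 for the A+T+ interaction, where the count over all genes rose from 210 to 3295 and from 0 to 2887. Added after seeing the data, removal of the GC and length trend gave 0 in AwTw and 1 over all genotypes, the choroid plexus covariate 4 in AwTw and 0 for A+, and leaving out the 2 mice of lowest correlation 0 in AwTw, 0 over all genotypes and 2 for A+. With 1 mouse left out, counts ran from 0 to 6 for diet in AwTw and over all genotypes, from 0 to 2 for A+ and from 0 to 1 for A+T+ on STD. Over all genes, 1487 passed for diet in AwTw, against 0 to 7309 under these settings, 4678 for diet over all genotypes, against 0 in batch 0, and 599 for A+, against 184 in batch 0 and 288 in batch 1. The cause was not tested. No paired analysis was possible because the labels carry no replicate numbers that link mice of different groups.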
